A study of Mus musculus with 2 samples.

Results

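The prostaglandin genes described here are 10 genes that make prostaglandins or receive them, looked up by symbol in the expression tables of WT and Kai1-/- perivascular cells (PCs). They are the cyclooxygenases Ptgs1 and Ptgs2, the terminal synthases Ptges, Ptgis and Ptgds, and the receptors Ptger1, Ptger2, Ptger3, Ptger4 and Ptgir. All 10 were listed, each on a single row, among 20211 gene symbols in all. The members were chosen by their function and not by their values here, with earlier results of these data known.

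RNA sequencing was carried out on primary PCs of the aorta of C57BL/6 mice, with 1 library from wild type cells and 1 from cells labelled Kai1 KO. Kai1 (Cd82) encodes a tetraspanin of the cell membrane. Neither group received a treatment according to the labels. The study purchased adult C57BL/6 mice of either sex and gave their age as a range of weeks and not by library, and the number of animals behind each library is not given in the sources used here. The cells were grown in serum-containing medium before RNA was taken, and how the Kai1 KO allele was made is likewise not given. The comparison of the genotypes addresses how loss of KAI1 alters the transcriptome of PCs.

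Prostaglandins are short-lived lipid signals made from arachidonic acid. Phospholipases free the arachidonic acid from membranes, the cyclooxygenases COX-1 (Ptgs1) and COX-2 (Ptgs2) turn it into the common precursor PGH2, and a terminal synthase turns PGH2 into one particular product. In the vessel wall the best known products are prostacyclin, which relaxes smooth muscle and restrains platelets, and PGE2, which acts in inflammation and angiogenesis. Each product works on its own G protein-coupled receptors, some of which raise cyclic AMP in the receiving cell and some of which lower it or raise calcium.

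The members differed widely in level. The unit is the RPKM, the reads of a gene scaled to its transcript length and to all mapped reads, so that levels of different genes can be compared within a library. In both libraries prostacyclin synthase and COX-1 transcripts were far above those of the other members. COX-2 transcripts in the Kai1-/- library were 25.4% of the WT level, and the receptors for prostacyclin and PGE2 other than EP1 were near or below an RPKM of 1 in both. With 1 library per genotype there is no replicate check, no test was made and no p-value is given, and animal, culture and preparation of the library cannot be told apart from genotype. In bulk RNA, fewer cells of a type and less RNA per cell cannot be told apart.

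**Figure D1:**
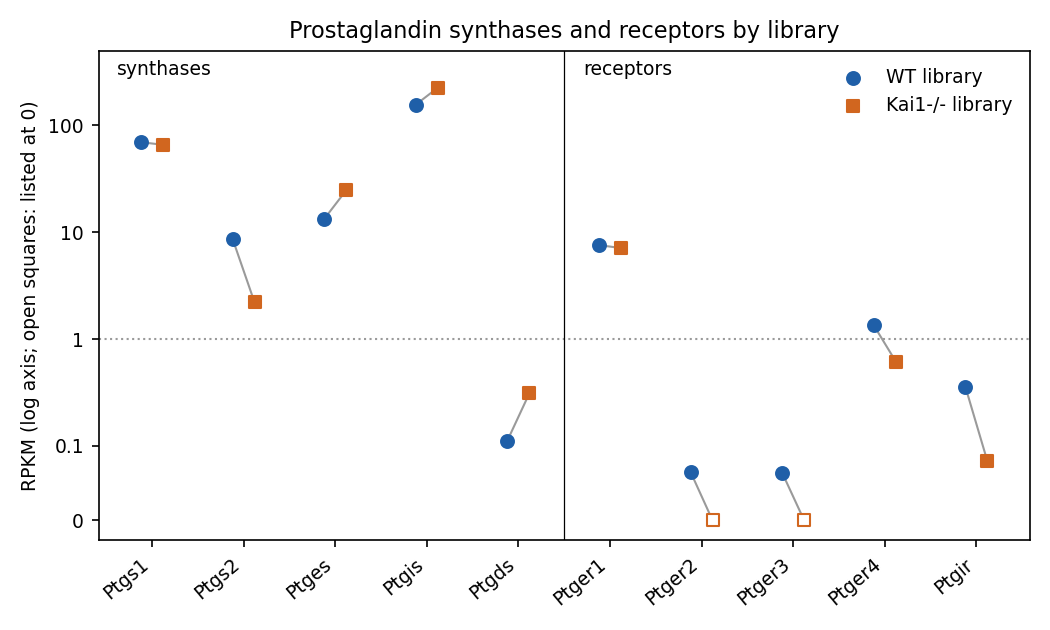
RPKM of each of the 10 members (log axis) in the WT library (circles) and the Kai1-/- library (squares), with synthases to the left and receptors to the right of the vertical line. Ptgis and Ptgs1 were highest in both libraries, and Ptger2 and Ptger3 were listed at 0 in the Kai1-/- library (open squares). The dotted line marks an RPKM of 1.

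Several facts of the libraries bear on these values. The steps between low RPKM values corresponded to an estimated 29500000 reads for WT and 26700000 reads for Kai1-/- PCs. Cd82, the targeted gene, was at 12.8 RPKM in WT and 2.62 in Kai1-/- PCs, which is 20.5% of the WT level. Of 13 perivascular markers, Acta2 was listed at 3823 and 2580 in the WT and Kai1-/- libraries and Tagln at 633 and 307. Cnn1 was at 120 and 49.2 and Pdgfrb at 44.7 and 31.6, whereas the pericyte markers Rgs5, Kcnj8 and Abcc9 stayed below 1 in both. All 4 Y-linked genes examined were above 0 in the WT library and at 0 in the Kai1-/- library, so that the sex of the cells and the genotype cannot be told apart. A gene is called lower or higher here where its ratio of RPKM + 0.1 between the libraries passed 2-fold. A gene is called expressed where the mean of both RPKM values reached 1. Among the 10068 expressed genes, 7.81% were called lower and 7.98% higher in Kai1-/- PCs. This balance depended on scaling, since 1856 genes were lower and 278 higher once both libraries were scaled to Gapdh, against 786 and 803 as deposited. Over the 20211 symbols, with repeated ones averaged, RPKM values summed to 884463 in the WT and 1238190 in the Kai1-/- library. Scaling both to the same sum gave 1816 lower and 286 higher. The median log2 ratio of the expressed genes was 0.08 as deposited, -0.41 when scaled to Gapdh and -0.39 with equal sums.

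Of the 10 members, 5 were expressed, and 1 of these 5, Ptgs2, was called lower and 0 were called higher. The background is 7.81% called lower. Without the filter on level, 3 of the 10 members were called lower, namely Ptgs2, Ptgir and Ptger4, where 9.29% of all symbols were, and 0 were called higher, where 5.96% were. The median log2 ratio of Kai1-/- to WT over the 5 members was -0.08, against 0.08 for all expressed genes. By direction alone, 7 members had the lower value in Kai1-/- PCs and 3 the higher.

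**Figure D2:**
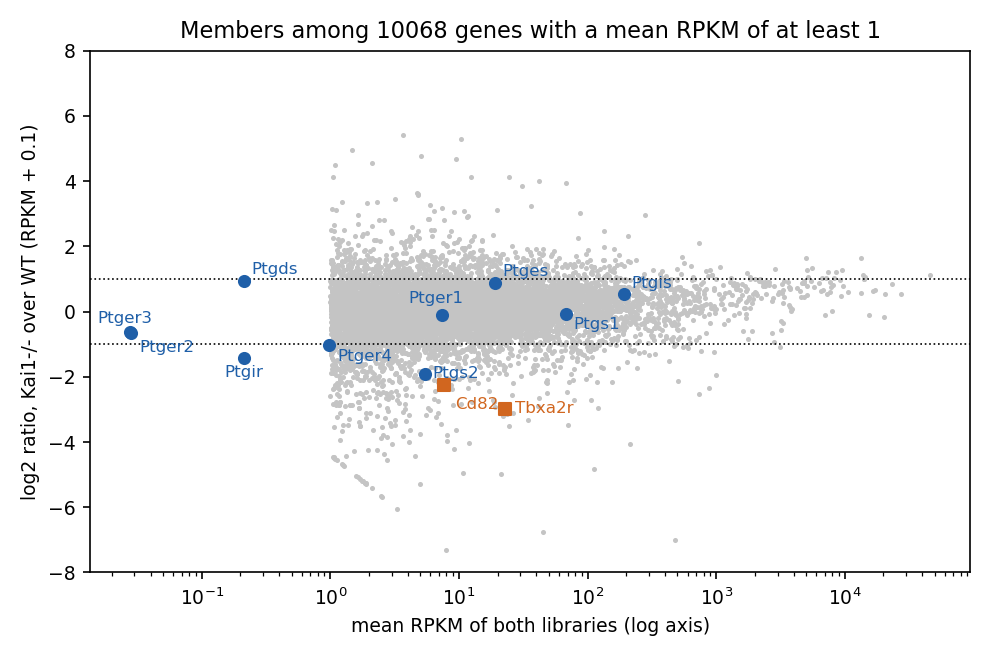
Log2 ratio of Kai1-/- to WT against the mean RPKM of both libraries (log axis) for the 10068 expressed genes (grey), with the 10 members in blue and Cd82 and Tbxa2r in orange. Dotted lines mark 2-fold. Ptgs2, at -1.93, lies below the lower dotted line, 5 members lie at a mean RPKM under 1, and the other 4 lie between the dotted lines.

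The 2 cyclooxygenases carry out the same reaction, and COX-1 is known as the constitutive form and COX-2 as the form induced by cytokines and growth factors. Ptgs2 lies on chromosome 1 from 151947254 to 151955140 (build NCBI37, plus strand). Its level was 8.66 RPKM in WT and 2.20 in Kai1-/- PCs. From the read steps, these values stand for about 1007 and 232 reads, and the log2 ratio without a pseudocount was -1.98 with a 95% interval from -2.19 to -1.77. All intervals given here cover counting error only and not differences between cultures. Among the 10068 genes, 2.47% had a lower log2 ratio than Ptgs2, and 2.44% of the 3526 genes within 2-fold of its mean RPKM did. With the pseudocount the log2 ratio of Ptgs2 was -1.93 as deposited. Under the other scalings it lay between -2.40 and -2.01, so that Ptgs2 was called lower under each of them.

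Ptgs1 was nearly level. It lies on chromosome 2 from 36085946 to 36107792 (plus strand) with 69.6 RPKM in WT and 65.8 in Kai1-/- PCs. The ratio of -0.08 had a counting interval from -0.14 to -0.02, and 39.6% of the genes had a lower one. Scaled to Gapdh it was -0.58, still within 2-fold.

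The balance between the isoenzymes does not depend on how the libraries are scaled. Ptgs1 stood 8.04-fold above Ptgs2 in WT and 29.9-fold above it in Kai1-/- PCs. Ptgs2 made up 11.1% of the summed cyclooxygenase RPKM in WT PCs and 3.23% in Kai1-/- PCs. Relative to Ptgs1, Ptgs2 was thus 3.72-fold lower in the Kai1-/- library, a log2 difference of -1.90 with an interval from -2.11 to -1.68. The summed cyclooxygenase RPKM was 78.3 and 68.0, so that COX-1 transcripts made up most of it in both genotypes.

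The reference sequences before these genes are printed because the isoenzymes differ so clearly in ratio, with that of Ptges, the synthase known to be induced beside COX-2. They were taken from RefSeq (GRCm38.p6), which had an entry for 8 of the 10 members, and each runs from 250 bases before to 50 bases after the annotated start, 5′ to 3′ on the strand of the gene. Each had 1 exact match in NCBI37, the build of the expression values. These are chr1:151946911-151947210 on the plus strand for Ptgs2, chr2:36085696-36085995 on the plus strand for Ptgs1 and chr2:30758768-30759067 on the minus strand for Ptges. Capitals mark every match, on either strand, to the E-box CACGTG, the cyclic AMP response element core TGACGT, the C/EBP palindrome TTGCGCAA, the TATA box TATAAA and the GC box GGGCGG, motifs chosen with these sequences in view.
Ptgs2: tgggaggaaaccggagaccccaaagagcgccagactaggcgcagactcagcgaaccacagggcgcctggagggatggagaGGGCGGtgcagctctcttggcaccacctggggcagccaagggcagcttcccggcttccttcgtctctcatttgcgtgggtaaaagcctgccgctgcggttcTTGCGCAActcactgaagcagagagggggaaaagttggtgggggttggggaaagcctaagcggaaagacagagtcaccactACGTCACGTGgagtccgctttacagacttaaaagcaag
Ptgs1: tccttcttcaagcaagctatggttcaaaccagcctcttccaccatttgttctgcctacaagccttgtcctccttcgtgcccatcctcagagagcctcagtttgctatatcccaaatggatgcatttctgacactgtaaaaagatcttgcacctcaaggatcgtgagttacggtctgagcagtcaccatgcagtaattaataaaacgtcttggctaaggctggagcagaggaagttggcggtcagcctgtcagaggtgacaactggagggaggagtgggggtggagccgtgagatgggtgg
Ptges: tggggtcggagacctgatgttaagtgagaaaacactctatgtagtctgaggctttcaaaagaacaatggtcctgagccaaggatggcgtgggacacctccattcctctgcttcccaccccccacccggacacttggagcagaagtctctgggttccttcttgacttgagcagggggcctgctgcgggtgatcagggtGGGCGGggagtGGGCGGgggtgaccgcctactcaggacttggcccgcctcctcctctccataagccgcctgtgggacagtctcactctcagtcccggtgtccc

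The window of Ptgs2 held matches to 4 of the 5 motifs, which were chosen with these sequences in view. Its response element core stood at positions 13 to 18, counted from 1 at the RefSeq start, and overlapped the E-box at positions 17 to 22. The GENCODE transcript of Ptgs2 starts 93 bases further downstream, so that both matches lie before that start. The C/EBP palindrome began 69 bases before the RefSeq start and the GC box 170 bases before it. Of all 32851 promoter windows of this length, 7.15% held the E-box, 7.51% the response element core, 0.183% the palindrome, 13.6% the TATA box and 35.7% the GC box. The window of Ptges held the GC box at 53 and 42 bases before the start, and the window of Ptgs1 held 0 of the 5 motifs. A match is a description of these letters and not of binding in PCs.

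Ptgis, prostacyclin synthase, was the member with the highest level. It lies on chromosome 2 from 167017305 to 167066104 (minus strand). Its level was 156 RPKM in WT and 225 in Kai1-/- PCs, and its rank in the WT library was 588 of all symbols. The log2 ratio was 0.53 with a counting interval from 0.49 to 0.57. It was 0.03 when scaled to Gapdh and 0.04 when the libraries were scaled to the same sum of RPKM, so that a higher level in Kai1-/- PCs depends on the scaling. An antisense gene covers 156 of its 2567 exon bases.

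Ptges, the inducible PGE2 synthase, lies on chromosome 2 from 30744991 to 30785383 (minus strand) and was at 13.3 RPKM in WT and 24.7 in Kai1-/- PCs. Its log2 ratio of 0.89 had a counting interval from 0.79 to 0.99 and fell short of 2-fold, and 10.6% of the genes had a higher ratio. Scaled to Gapdh it was 0.39. Ptges and Ptgs2 thus differed in direction under the scalings tried, with Ptgs2 at 25.4% and Ptges at 185% of its WT value as deposited. Relative to Ptgis, a ratio free of scaling, Ptges was 1.29-fold higher in Kai1-/- PCs (log2 0.36, interval from 0.26 to 0.47).

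Ptgds, the lipocalin-type PGD2 synthase, was low in both. Its RPKM was 0.112 and 0.311 in the WT and Kai1-/- libraries, values that stand for as few as 2 and 5 reads. The interval of its log2 ratio ran from -1.14 to 4.86, so that no difference was detectable at this depth. Among the 3 terminal synthases of the list, Ptgis made up 92.1% of the summed RPKM in WT PCs and 90.0% in Kai1-/- PCs, and Ptges 7.84% and 9.85%. Their sum was 169.8 RPKM for WT and 250.5 for Kai1-/- PCs.

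**Figure D3:**
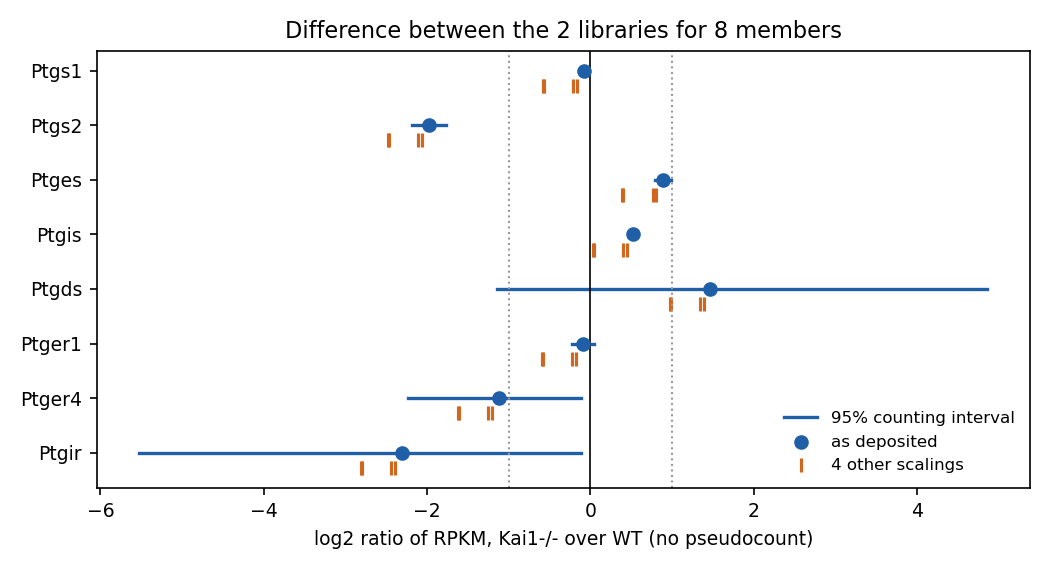
Log2 ratio of RPKM, Kai1-/- over WT, for the 8 members above 0 in both libraries (points), with 95% counting intervals (lines) and the ratio under 4 other scalings of the libraries (orange ticks). Ptgs2 lies beyond the 2-fold line at -1 under each scaling, Ptgis moves to near 0 under the scalings to Gapdh and to the same sum, and the interval of Ptgds spans 0.

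Among the receptors on the list, Ptger1, the calcium-linked EP1 receptor for PGE2, had the highest level. It lies on chromosome 8 from 86190732 to 86196652 (plus strand), and was at 7.58 RPKM in WT and 7.10 in Kai1-/- PCs. The ratio of -0.09 had an interval from -0.23 to 0.04. It was -0.58 when scaled to Gapdh and -0.57 with equal sums of RPKM, still within 2-fold. The library preparation in the labels describes no step that marks strand, so that reads from either strand could count toward Ptger1, and its values are uncertain to that extent.

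The receptors that raise cyclic AMP, EP2 (Ptger2), EP4 (Ptger4) and the prostacyclin receptor (Ptgir), were all low. Ptger4, on chromosome 15 from 5156661 to 5194187 (minus strand), was at 1.34 RPKM in WT and 0.615 in Kai1-/- PCs. Its ratio of -1.12 without a pseudocount had an interval from -2.23 to -0.11, taken from the smallest whole reads that give this ratio, 29 and 12. With a pseudocount of 0.1 RPKM its ratio was -1.01, just past 2-fold, and its exons overlap the antisense genes Gm15937, by 1015 of 6648 bases, and Ttc33. With a pseudocount of 1 RPKM it was -0.54.

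Ptgir, on chromosome 7 from 17491839 to 17496254 (plus strand), was at 0.355 RPKM in WT and 0.0716 in Kai1-/- PCs. These values stand for at least 11 and 2 reads, and the log2 ratio of -2.31 had an interval from -5.53 to -0.12. The transcripts of the prostacyclin receptor were thus low in cells in which those of its synthase were abundant. In the Kai1-/- library they were close to the limit of detection, where 3 reads would give 0.0362 RPKM. Ptger2, on chromosome 14, was listed at 0.0568 in WT PCs and at 0 in Kai1-/- PCs. Ptger3, the EP3 receptor that lowers cyclic AMP, on chromosome 3, was listed at 0.0558 and 0. About 6 reads by the longest transcript, or fewer by a shorter one, lie behind each WT value. In Kai1-/- PCs 3 reads would give 0.0323 and 0.0333 RPKM, and no fold is given.

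EP1 made up 80.7% of the summed RPKM of these 5 receptors in WT PCs and 91.2% in Kai1-/- PCs. Ptger4 made up 14.3% and 7.89%, and Ptgir 3.79% and 0.920%. The sums were 9.38 and 7.79.

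A wider list of prostanoid receptors added the gene with the highest level. Tbxa2r, the thromboxane receptor that contracts smooth muscle, was at 40.3 RPKM in WT and 4.95 in Kai1-/- PCs. These values stand for about 1859 and 206 reads, and the log2 ratio of -3.03 had a counting interval from -3.24 to -2.82, with 0.864% of the 10068 genes lower. With the pseudocount the ratio was -3.00 as deposited, and the lowest under the other scalings was -3.49. Tbxa2r stood 5.32-fold above Ptger1 in WT PCs, whereas it was at 0.696 of Ptger1 in Kai1-/- PCs. Over all 8 prostanoid receptors listed, the summed RPKM was 49.7 in WT PCs and 13.1 in Kai1-/- PCs, 3.79-fold lower, and the share of Tbxa2r was 81.1% and 37.7%. That of Ptger1 was 15.2% and 54.1%, so that the leading receptor differed between the libraries. Ptgfr, the PGF2α receptor, was listed at 0.00801 in WT PCs, about 1 read, and at 0.391 in Kai1-/- PCs, about 42 reads, and is named after its values were seen. It was called higher without the filter on level (log2 2.19). Ptgdr was at or near 0 in both libraries.

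**Figure D4:**
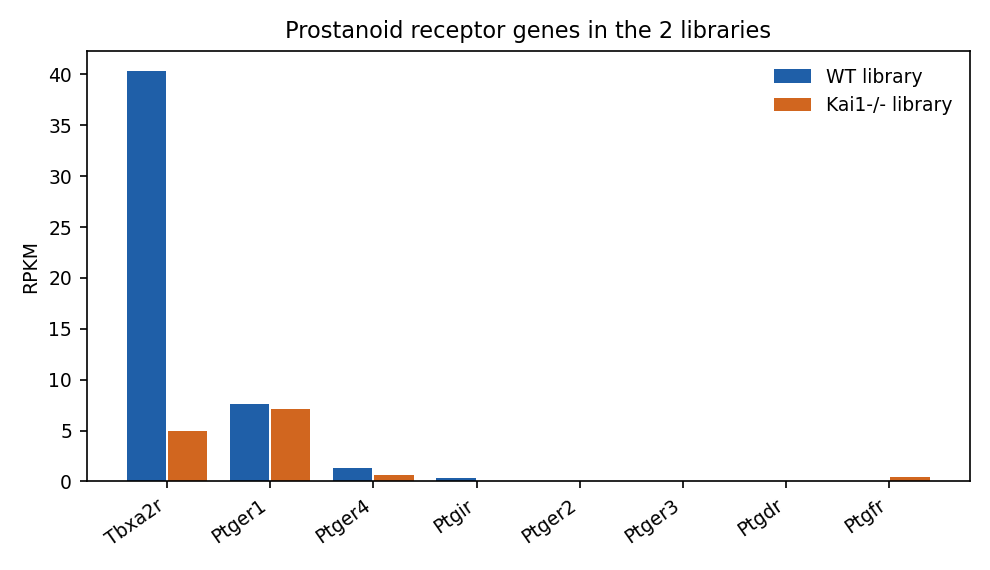
RPKM of the 8 G protein-coupled prostanoid receptor genes in the WT library (blue bars) and the Kai1-/- library (orange bars), 1 library each and hence no error bars. Tbxa2r stood at 40.3 in WT and 4.95 in Kai1-/- PCs. Ptger1 was nearly level as deposited at 7.58 and 7.10, and the remaining 6 receptors were below 2 in both.

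Prostaglandins also act on nuclear receptors. Pparg was at 2.49 RPKM in WT and 2.22 in Kai1-/- PCs, and Ppard at 12.6 and 10.7, both within 2-fold. Of the other receptors on the list, 3 were expressed, of which 1, Tbxa2r, was called lower and 0 higher.

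Of the other prostanoid synthases, 5 of 8 were expressed, with 1 called lower, 0 called higher and a median log2 ratio of -0.18. The one called lower was Fam213b, a prostaglandin F synthase, at 27.2 in WT PCs and 6.43 in Kai1-/- PCs (log2 -2.07). Aldose reductase Akr1b3, which can also make PGF2α, was listed at 163 and 143, and the carbonyl reductase Cbr1, which can turn PGE2 into PGF2α, at 25.3 and 19.9. The constitutive PGE2 synthases Ptges2 and Ptges3 were listed at 15.9 and 21.1 in WT PCs and at 23.7 and 25.7 in Kai1-/- PCs. Thromboxane synthase Tbxas1, which makes the ligand of the thromboxane receptor, was at 0.0380 and 0.105, and Hpgds, the PGD2 synthase of blood cells, at 0.237 and 0.205. The values of 4 of the 5 expressed genes lay within 2-fold.

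Most genes for the release of arachidonic acid were similar between the libraries. Of 21 genes that release it, store it or limit its release, 14 were expressed, of which 1 was called lower and 0 higher, with a median of 0.06. Pla2g4a, the cytosolic phospholipase A2 that supplies the cyclooxygenases, was at 7.20 RPKM in WT and 5.63 in Kai1-/- PCs (log2 -0.35). Its relative Pla2g4b was at 2.07 and 2.32, and the calcium-independent Pla2g6 at 11.9 and 8.34. The secreted Pla2g2e was the one called lower, at 6.92 and 0.404, or about 134 and 7 reads. Pla2g12a, Pla2g15 and Pla2g16 were listed at 24.3, 22.4 and 2.77 in WT PCs and at 28.2, 23.7 and 3.84 in Kai1-/- PCs. Mgll, the lipase that frees arachidonic acid from an endocannabinoid, was at 26.1 and 14.8, within 2-fold as deposited and past it when scaled to Gapdh (-1.31). Daglb and Dagla, which make that endocannabinoid, were at 8.66 and 1.40 in WT PCs and at 8.88 and 2.06 in Kai1-/- PCs. Anxa1, known as an inhibitor of phospholipase A2, was listed at 355 and 238 and likewise passed 2-fold when scaled to Gapdh (-1.08). The enzymes that put arachidonic acid back into membranes lay within 2-fold, with Lpcat3 at 39.9 and 55.1, Mboat7 at 23.1 and 22.1, and Acsl4 at 2.93 and 3.43.

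Transport and breakdown held the 1 gene called higher among the expressed genes of the 4 other prostanoid lists. Slco2a1, the prostaglandin uptake carrier, was at 50.6 RPKM in WT and 103 in Kai1-/- PCs, and its log2 ratio was 1.03 with an interval from 0.98 to 1.08. It was 0.53 when scaled to Gapdh, so that the 2-fold call depends on the scaling and the sign does not. Slco3a1, a related carrier, was at 11.4 and 6.16 (-0.88 as deposited and -1.37 when scaled to Gapdh), and the efflux pump Abcc4 at 2.27 and 2.72. Hpgd, the enzyme that starts the breakdown of prostaglandins inside cells, was listed at 0 in both libraries, where 3 reads would give an RPKM of 0.0669 and 0.0740. The reductases Ptgr1, Ptgr2 and Cbr3 were at 15.9, 5.24 and 70.7 in WT PCs and at 16.3, 4.74 and 58.6 in Kai1-/- PCs. Of the 6 expressed genes of this list, 1 was called higher and 0 lower, with a median of -0.05.

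**Figure D5:**
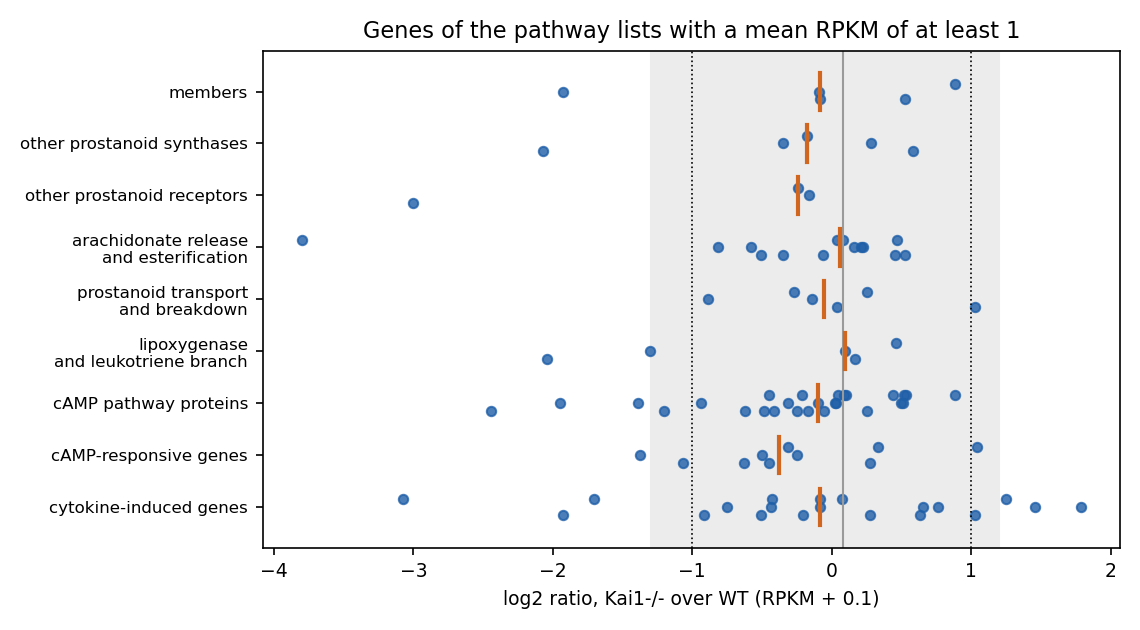
Log2 ratio of Kai1-/- to WT for expressed genes of the member list and 8 pathway lists, 1 dot per gene, with the median of each list (orange bars). The grey band holds the central 90% of the 10068 genes, from -1.29 to 1.203, the grey line is their median and dotted lines mark 2-fold. In each of the 4 other prostanoid lists and among the members the median lies between -0.24 and 0.06, with single genes far out.

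EP2, EP4 and the prostacyclin receptor act through cyclic AMP. Of 36 genes of the cyclic AMP pathway, 27 were expressed, with 4 called lower, 0 higher and a median of -0.10. The genes called lower were Prkar1b, a regulatory subunit of protein kinase A (28.9 in WT and 5.25 in Kai1-/- PCs), Gnai1, an inhibitory G protein subunit (1.83 and 0.400), Pde3a, a phosphodiesterase (1.97 and 0.691) and Rapgef3, the cyclic AMP sensor EPAC1 (15.1 and 6.53). Of 16 genes known to respond to cyclic AMP, 10 were expressed, with a median of -0.38. Of these, Cited2 (109 and 42.0) and Dusp1 (45.04 and 21.5) were called lower and Nfil3 (10.7 and 22.1) higher. The call of Nfil3 was lost under all 4 other scalings (log2 0.54 when scaled to Gapdh) and with a pseudocount of 1 RPKM.

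Cytokine-induced genes were listed because cytokines are the best known inducers of Ptgs2 and Ptges. Of 28 genes, 20 were expressed, with 3 called lower, 4 higher and a median of -0.08. Scaled to Gapdh, 6 were lower and 1 higher, and with equal sums 5 were lower and 1 higher. The adhesion molecule Icam1 was at 6.69 in WT and 0.704 in Kai1-/- PCs, Il6 at 5.11 and 1.27, and the chemokine Ccl20 at 3.89 and 1.12. In the other direction, Lcn2 was at 18.9 and 65.4, Il1rn at 1.68 and 4.79, Cxcl1 at 64.6 and 154 and Saa3 at 49.8 and 102. Of the 4 called higher, Lcn2 alone passed 2-fold when scaled to Gapdh (log2 1.29).

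Markers of other cell types also differed between the libraries. Of 12 platelet and mast cell markers, cells in which COX-1 and PGD2 synthesis are prominent, 5 were expressed and all 5 of these were called lower, with Cma1 at 22.2 and 6.72, Cpa3 at 14.8 and 3.47 and Pf4 at 2.19 and 0. The summed RPKM of the 12 was 46.5 in WT PCs and 13.4 in Kai1-/- PCs, and the mast cell markers Fcer1a and Ms4a2 were at 0 in both. Of 17 macrophage markers listed, 5 were expressed, with 4 called lower and 1, Cd14, called higher. Their sum was 42.1 and 19.5, with C1qa, C1qb, C1qc and Aif1 at 0 in both. Of 16 endothelial markers, 2 were expressed, and the sum was 4.995 and 8.62. The higher sum lay with Egfl7, at 2.28 and 7.39, whereas Pecam1 (0.413), Tek (0.409), Erg (0.302), Kdr (0.122) and Cdh5 (0.0267) were at 0 in Kai1-/- PCs and Emcn and Cldn5 at 0 in both. Without the filter on level, 4 endothelial markers were called lower. Perivascular markers summed to 4646 and 2978, with 4 of 7 expressed ones called lower and 0 higher. These 4 were Mcam (4.90 and 0.264), Myh11 (2.96 and 0.346), Cnn1 and Tagln. With no filter on level, 5 perivascular markers were called lower and 2 higher. The 2 called higher were the pericyte markers Kcnj8 (0 and 0.791) and Rgs5 (0.0630 and 0.233). Adventitial fibroblast markers summed to 3445 and 1878, with 5 of 9 expressed ones called lower and 1 higher. The part of these cell types in the values of Ptgs2, Tbxa2r and the other genes was not tested.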

How the data were processed

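RNA from WT and Kai1 KO aortic perivascular cells of the mouse was sequenced, 1 library each. The authors aligned the reads to the mouse build mm9 (NCBI37) with TopHat 2.0.9 and Bowtie (per the study's methods and the submitters' processing notes, which also name Cufflinks) and deposited RPKM values, 1 per RefSeq gene and library. The strand setting is not given in the sources used here. RPKM is relative to all mapped reads, so that abundant genes can shift all others.

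The 38 rows of 20462 that lack a symbol were dropped, and values of 153 symbols on several rows were averaged. Log2 ratios of Kai1-/- to WT used RPKM + 0.1, which understates differences of low genes. Genes passed 2-fold or not, and no test was possible on these values. The study tested differences between conditions with Cuffdiff, which needs the reads and was not repeated here. Members, lists and motifs were chosen with earlier results of these data known. Besides the members, prostanoid genes with an RPKM of at least 1 in either library were named, and the 4 largest log2 ratios past 2-fold in each direction of other pathway lists.

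Reads behind values were estimated from the steps of low RPKM values, using the longest GENCODE M1 transcript less 200 bases. At these steps, 80.9% of low values in WT and 77.1% in Kai1-/- lay within 0.15 of a whole read. For 3 members with few reads, the smallest whole numbers of reads giving the observed ratio were used. Intervals are exact binomial (95%), except that ratios between 2 genes used a normal approximation. The scripts were checked on simulated data. Python 3.11.15, numpy 2.4.6, pandas 2.3.3, scipy 1.17.1 and matplotlib 3.10.9 were used. The alternatives were other pseudocounts, scalings and filters. Some values are not reported here.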

Additional observations from a re-analysis of the deposited data

How the results depend on the processing

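Ptgs2 was the 1 member with a mean RPKM of at least 1 called lower under every pseudocount, scaling and filter tried. Of the members at this level, 0 were called higher under any of them. Ptgds, below this level, passed 2-fold higher with a pseudocount of 0.01 RPKM (log2 1.39). Without the filter on mean RPKM 3 members were called lower, since Ptger4 and Ptgir then enter. The median log2 ratio of the members was -0.16 with the median of all genes set to 0, -0.21 with the upper quartile made equal, -0.58 when scaled to Gapdh, -0.56 with equal sums of RPKM and -0.37 without the filter. The 4 scalings move all genes by nearly the same amount. Of 70 recomputed log2 ratios of single members, 53 moved by less than the distance from the middle of the counting interval to its end. The other 17 moved by more, and 0 changed sign. For every member this interval came from the reads by the longest transcript. It is narrower than the interval given above for Ptger4, Ptgir and Ptgds. The 53 include all those of Ptger2 and Ptger3, whose intervals have no lower end. They also include all those that took the highest value of a repeated symbol, since each member has a single row. For these the outcome was fixed in advance. The 2-fold line was crossed by 5 members, all with a mean RPKM below 1 (Ptgds, Ptger2, Ptger3, Ptger4 and Ptgir), and by 0 of the others. Alternatives for the pathway lists were added after the data were seen. Of 234 recomputed list counts, 197 stayed within 1.5 times and 37 did not. Depth limits Ptger2, Ptger3, Ptgds and Ptgir. No paired analysis was possible because there is 1 library a genotype.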

Other observations

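Arachidonic acid also feeds the lipoxygenases, which make leukotrienes. Of 17 genes of this branch, 5 were expressed (mean RPKM of 1 or more), with 2 called lower, 0 higher and a median log2 ratio of 0.09. Alox5ap, the protein that presents arachidonic acid to 5-lipoxygenase, was at 3.63 RPKM in WT and 0.804 in Kai1-/- PCs, and Cyp4f13 at 5.78 and 2.28. Lta4h, which makes leukotriene B4, was nearly level at 14.2 and 15.2. 5-lipoxygenase itself (Alox5) was at 0.129 and 0. The macrophage markers Tyrobp and Fcer1g, with 10.4 and 11.3 RPKM in WT and 2.37 and 2.47 RPKM in Kai1-/- PCs, were lower as well, and their part in the value of Alox5ap was not tested.

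Of the 10 members, 4 lie on chromosome 2, which also carries Cd82 from 93259268 to 93303297. They are Ptgs1, Ptges, Ptgis and Ptgds. The 765 expressed genes of this chromosome showed a median log2 ratio of 0.10, against 0.08 for all genes.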
